A study of Mus musculus with 4 samples.

Results

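The glucocorticoid receptor (GR) binding regions of 8 transcription factor genes in mouse liver are described here, the Kruppel-like factors Klf9, Klf15, Klf10, Klf11, Klf13, Klf6 and Klf4 and the BTB zinc finger gene Zbtb16. A region was assigned to a gene when the nearest transcription start site (TSS) of a protein-coding transcript to its centre was that of the gene, whatever the distance. By this rule 77 of the 31343 regions found after dexamethasone and 18 of the 5883 regions found after vehicle belonged to the 8 genes, out of 21910 protein-coding genes. GR ChIP-seq had been carried out on liver collected from male mice aged 6 to 8 weeks at ZT18, in the dark phase of a cycle with 12 h of light, 1 h after an intraperitoneal injection. The ZT18 Vehicle group (2 libraries) received (2-hydroxypropyl)-beta-cyclodextrin in water, and the ZT18 Dex group (2 libraries) received 1 mg/kg of water-soluble dexamethasone, a synthetic GR agonist. Both groups carry the same genotype in the labels, Hnf4afl/flAlbCre+/-, in which a Cre expressed from the albumin promoter would delete Hnf4a in hepatocytes. The methods of the study describe C57BL/6 mice instead, and which description applies was not settled, so no result below can be read as that of a liver with or without Hnf4a. RNA was not measured, and the nearest gene need not be the gene that a region acts on.

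Kruppel-like factors are zinc finger proteins that bind GC-rich and CACCC sequences and activate or repress transcription. KLF9 is a repressor whose gene is induced by glucocorticoid and thyroid hormones, and KLF15 promotes gluconeogenesis and amino acid breakdown in the fasted liver. KLF10 and KLF11 were first studied as genes induced by TGF-beta, KLF13 as an activator in lymphocytes, KLF6 in liver injury and KLF4 as a pluripotency factor. ZBTB16, also named PLZF, is a repressor with a BTB domain, and its gene is widely used as a marker of glucocorticoid exposure. GR is a nuclear receptor that enters the nucleus when it binds corticosterone, the hormone of mice, or dexamethasone. It binds DNA as a dimer at the glucocorticoid response element (GRE), a palindrome of AGAACA-like sites, or through other factors already on the chromatin.

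The GRE palindrome, searched on both strands as the core ACANNNTGT preceded by a G and 1 free base and followed by 1 free base and a C, lay in 11 of the 77 Dex regions, and all 11 belonged to Zbtb16 (6 regions), Klf9 (3) and Klf15 (2). The 12 matches are shown with 8 bases on either side because the regions with the highest signal described below carry several of them. Each is named by its gene and by the distance of the region's centre from the nearest TSS of that gene, negative upstream. Sequences are written 5′ to 3′ on the plus strand of GRCm38 (mm10), and the capitals mark the match.
Klf9 -102.7 kb: ttcccaaaGCACAAAGTGTCCcattctgg
Klf9 -84.2 kb: acagaaggGAACATTCTGTACtcagcctg
Klf9 -5.4 kb: ggtaaaaaGGACAAACTGTTCcacaacaa
Klf15 -0.6 kb: gggtcctgGGACACCATGTTCcctgcatt
Klf15 +4.2 kb: ctgcagtgGAACATCCTGTTCcagagtgg
Zbtb16 +11.0 kb: ggtcaatgGGACAAAGTGTACccggacac
Zbtb16 +60.1 kb: gctgcagaGGACAGAATGTTCtctagagt
Zbtb16 +95.6 kb: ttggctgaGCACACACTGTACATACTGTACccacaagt
Zbtb16 +98.3 kb: tgctttggGTACAGTGTGTTCttggagac
Zbtb16 +99.4 kb: ttcggagaGCACACAGTGTACtgtacagc
Zbtb16 +112.0 kb: ataaggaaGTACAGAGTGTACcaaaacag
The Zbtb16 +95.6 kb line holds a pair of overlapping matches. Against the full palindrome, AGAACA and TGTTCT set 3 bases apart with 12 fixed positions, the site at Zbtb16 +60.1 kb matched 11, those at Klf9 -84.2 kb, Klf9 -5.4 kb, Klf15 +4.2 kb, Zbtb16 +98.3 kb and Zbtb16 +99.4 kb matched 10, and the remaining 6 sites matched 8 or 9. The Klf9 lines lie on chromosome 19, the first of them in an exon of a non-coding gene, at chr19:23038417-23038445, chr19:23057005-23057033 and chr19:23135085-23135113. The Klf15 lines are chr6:90464650-90464678, in an annotated exon, and chr6:90471382-90471410. The Zbtb16 lines, all in introns of the gene, are in the order shown chr9:48824924-48824952, chr9:48775817-48775845, chr9:48740256-48740293, chr9:48737594-48737622, chr9:48736500-48736528 and chr9:48723696-48723724.

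The central 200 bp of 3 regions are given in full, since the signal results below turn on them. They are the region with the highest signal among all 77, that with the highest mean signal at Zbtb16, and the Zbtb16 region with the pair of matches. Capitals mark the GRE palindrome in the Klf9 -84.2 kb window, the shorter GRE core ACANNNTGT, which every palindrome also contains, in the Zbtb16 +106.3 kb window, and the overlapping palindromes in the Zbtb16 +95.6 kb window.
Klf9 -84.2 kb window: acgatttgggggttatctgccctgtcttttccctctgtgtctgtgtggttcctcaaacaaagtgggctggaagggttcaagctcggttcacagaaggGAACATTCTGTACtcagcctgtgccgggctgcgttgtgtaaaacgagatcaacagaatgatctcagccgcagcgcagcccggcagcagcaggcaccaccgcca
Zbtb16 +106.3 kb window: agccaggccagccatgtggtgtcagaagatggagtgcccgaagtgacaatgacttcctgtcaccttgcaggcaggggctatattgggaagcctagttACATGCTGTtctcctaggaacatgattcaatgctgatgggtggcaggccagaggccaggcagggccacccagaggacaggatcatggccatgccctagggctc
Zbtb16 +95.6 kb window: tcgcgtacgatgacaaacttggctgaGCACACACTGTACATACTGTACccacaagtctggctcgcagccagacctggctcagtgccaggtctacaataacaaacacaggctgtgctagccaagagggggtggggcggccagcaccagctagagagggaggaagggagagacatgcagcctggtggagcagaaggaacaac
Their positions are chr19:23056916-23057115, chr9:48729556-48729755 and chr9:48740238-48740437, on the plus strand. In the Klf9 -84.2 kb window the palindrome was centred 4 bp from the middle of the region.

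Signal was measured as RPKM, the reads of a library in a region scaled to the width of the region and to the total reads of the library. Vehicle replicate 1 was the deepest library (91494606 reads) and Vehicle replicate 2 the shallowest (29179899), with 64169077 and 65097597 for the Dex libraries. The treatment's own regions held 1.04% to 1.35% of the Vehicle reads and 6.35% to 7.79% of the Dex reads. The Vehicle regions covered 3.08 Mb and the Dex regions 18.2 Mb, so these shares do not compare enrichment. Median reads per region lay between 51 and 124, so single regions carry a counting error. Replicate 2 exceeded replicate 1 in 64 of the 77 Dex regions and 17 of the 18 Vehicle regions of the 8 genes, against 75.0% and 77.8% of all regions. Each region set was called once per treatment across ZT6 and ZT18 libraries, so presence in a set is not a ZT18 result and has no replicate check. Among hepatocyte marker genes, 12 Dex regions lay nearest to Alb, 12 to Cps1, 8 to Ttr, 5 to Trf, 5 to Fgb, 3 to Cyp2e1 and 2 to Apoa1. Dex regions lay nearest to 5 of 5 endothelial marker genes (Pecam1, Kdr, Stab2, Cdh5, Tek), with 21 regions, and to 0 of 5 macrophage ones (Adgre1, Clec4f, Cd68, Csf1r, Marco). In bulk liver, binding in more cells and more binding per cell cannot be told apart.

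Klf9, Klf15, Zbtb16, Klf4 and Klf6 each had 10 or more Dex regions, whereas the median over genes with any was 2. Zbtb16 had 18, a count that 74 genes reached, Klf4 had 15, Klf9 had 12, Klf15 had 11 and Klf6 had 10. Klf10 and Klf11 had 4 each and Klf13 had 3. In the Vehicle set Klf9 and Zbtb16 had 5 regions each, Klf15 and Klf4 had 3, Klf11 and Klf6 had 1, and Klf10 and Klf13 had none. Among protein-coding genes, 50.2% had a Dex region and 18.3% a Vehicle region.

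The amount of sequence nearest to each gene differed, so the counts were also taken per length. Klf4 and Klf6 stand in gene-poor stretches of 695 kb and 969 kb, and their densities were 2.16 and 1.03 Dex regions per 100 kb, beside 1.18 over all genes. The density was 17.4 per 100 kb at Klf15, 11.8 at Zbtb16, 7.93 at Klf11 and 4.74 at Klf9, and 2.66 and 2.39 at Klf10 and Klf13. By this assignment Klf15 was the densest of the 8 although Zbtb16 had more regions. When all transcripts of protein-coding genes were counted, 6 of the 11 Klf15 regions stayed with Klf15 and all 18 of Zbtb16 with Zbtb16. Densities were not taken again, so the order of these 2 genes is not secure. The assignment itself was sensitive to the annotation. When the start sites of every transcript of every gene, coding or not, were allowed, 29 of the 77 Dex regions stayed with the 8 genes. Of these 18 were at Zbtb16, 4 at Klf15 and 0 at Klf9, Klf4 or Klf10.

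**Figure D1:**
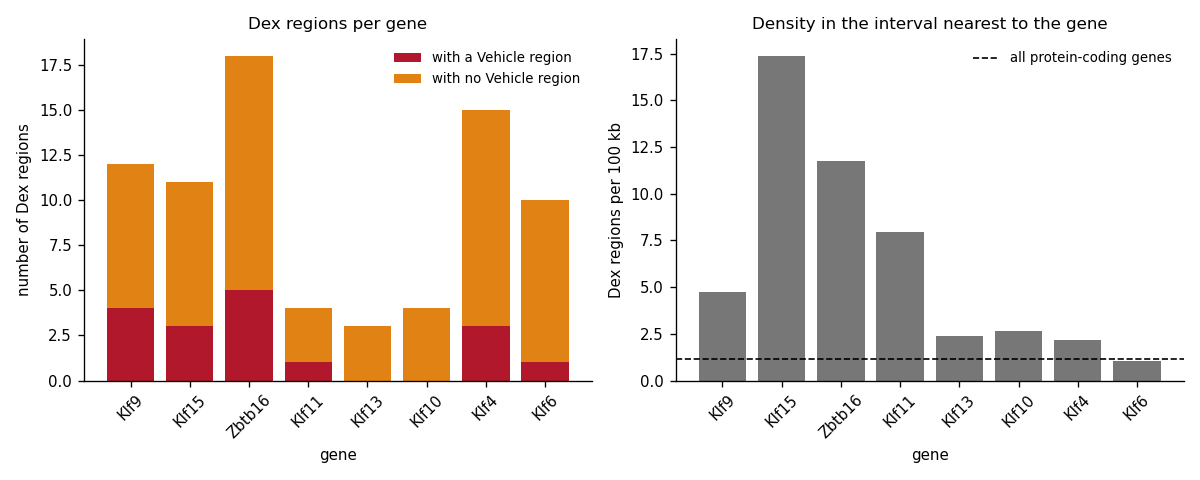
Left, number of Dex regions nearest to each gene, split into those with and without an overlapping Vehicle region. Right, Dex regions per 100 kb of the interval nearest to the gene, with the value over all protein-coding genes (1.18) as a dashed line. Zbtb16 has the most regions (18) and Klf15, by the assignment used, the highest density (17.4), and Klf6 lies below the line (1.03).

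The regions of the 8 genes were mostly distal. A promoter was taken as the 2000 bp before and the 200 bp after an annotated TSS of any gene. Promoters held 14 of the 77 Dex regions (18.2%, beside 33.4% of all Dex regions), introns 35 (45.5% beside 36.9%), intergenic sequence 26 (33.8% beside 25.8%) and exons 2. The median distance to the TSS was 57.6 kb, beside 12.1 kb over all Dex regions. Of the Dex regions, 17 (22.1%) overlapped a Vehicle region, beside 18.3% of all. Signal was above the median of all Dex regions in 53 of the 77, in the top 10% in 23 and in the top 1% in 7. Of the 18 Vehicle regions, 15 were above the Vehicle median, 11 in the top 10% and 1 in the top 1%. The 7 Dex regions in the top 1% were 2 at Klf9 and 5 at Zbtb16.

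**Figure D2:**
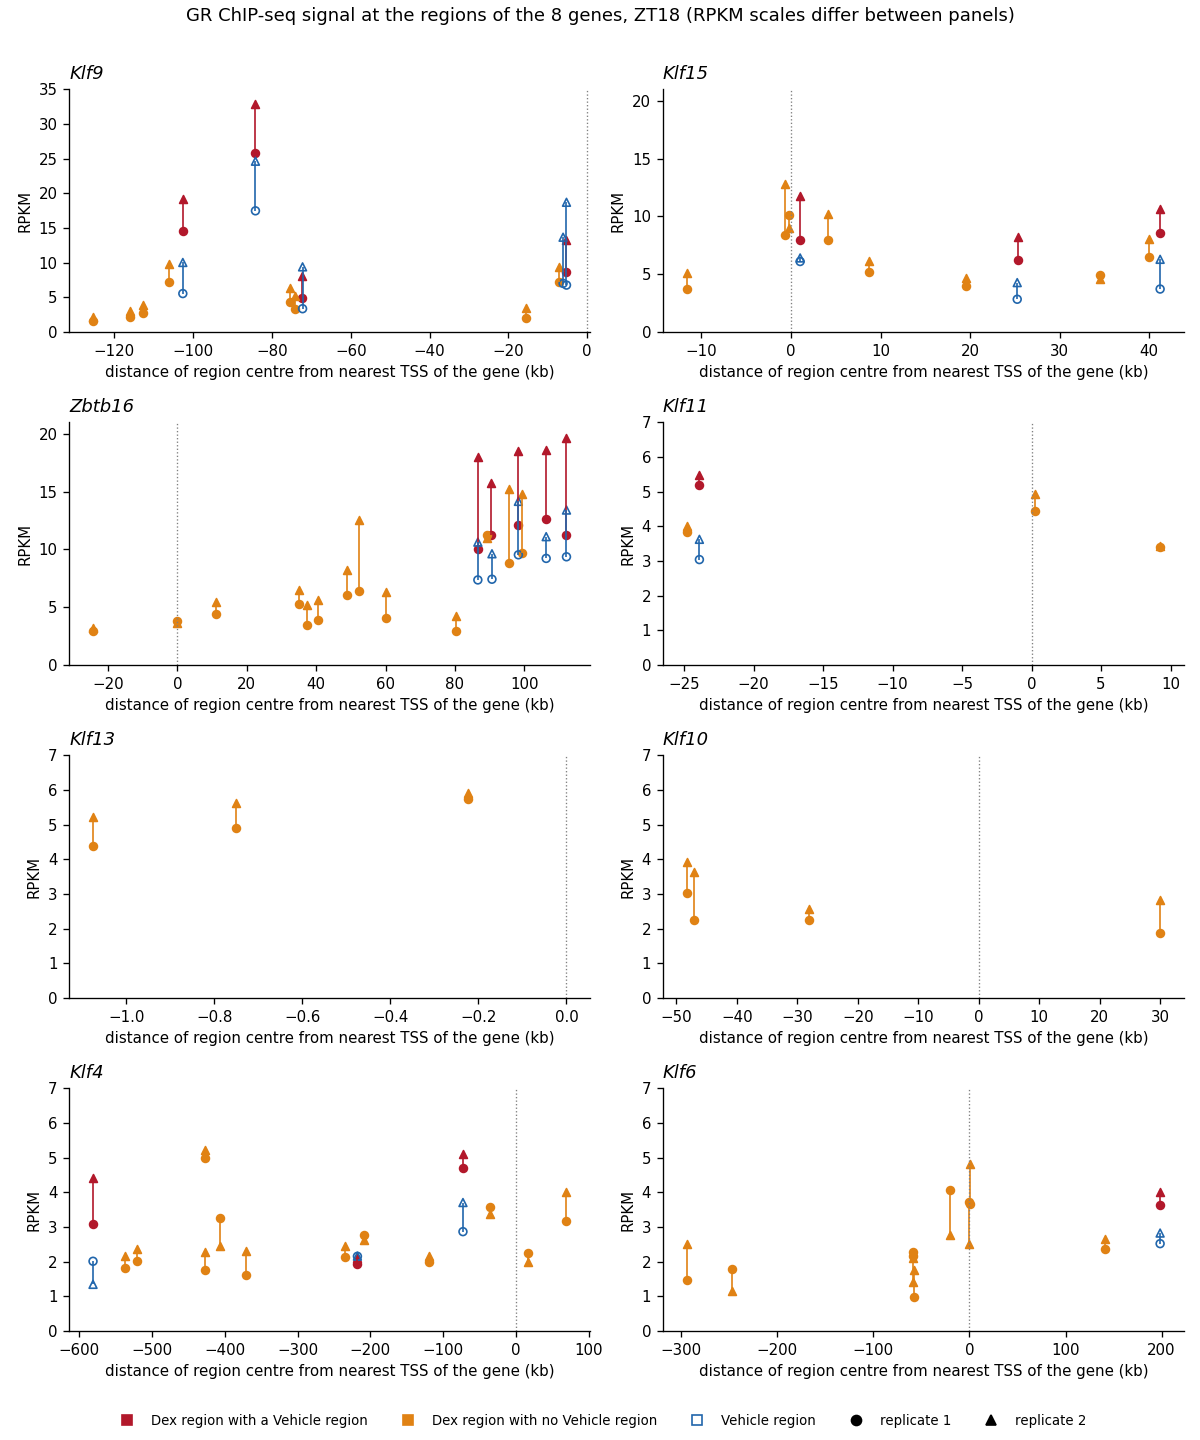
GR signal (RPKM) at each region of the 8 genes against the distance of its centre from the nearest TSS of the gene (kb). Circles and triangles are replicates 1 and 2 joined by a line, filled for Dex regions (red with, orange without an overlapping Vehicle region) and open blue for Vehicle regions. The highest point is the Klf9 region at -84.2 kb (25.8 and 32.8), and the Zbtb16 signal is highest between +86.6 and +112.0 kb. Scales differ between panels.

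Klf9 had the strongest single region. All 12 Dex regions lay upstream of the gene (chr19:23141226-23168134, plus strand), between -125.4 and -5.4 kb, and 0 lay over a promoter of Klf9 itself. The region at -84.2 kb (chr19:23056851-23057180) had 17.5 and 24.6 RPKM in the Vehicle libraries and 25.8 and 32.8 in the Dex libraries. It ranked 17 of 31343 by mean Dex signal and 31 of 5883 by mean Vehicle signal, so it was among the highest regions with and without added ligand. It lies in an intron of the non-coding gene C330002G04Rik, which hosts 9 of the 12 regions. Both Dex values were above both Vehicle values, but the log2 fold change of 0.48 ± 0.44 (SE) did not pass the test (edgeR quasi-likelihood, adjusted p = 0.487).

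At Klf9 -102.7 kb (chr19:23038177-23038854), centred in an exon of the same non-coding gene, the Vehicle libraries had 5.55 and 10.03 RPKM and the Dex libraries 14.6 and 19.2. The groups did not overlap, and the log2 fold change of 1.13 ± 0.44, the largest of the 16 tested at the 8 genes, narrowly missed the threshold (edgeR adjusted p = 0.0728). At -72.4 kb the values were 3.37 and 9.40 RPKM in Vehicle and 4.95 and 8.06 in Dex, and the groups overlapped (0.12 ± 0.37, edgeR adjusted p = 0.871). The Dex region there was 583 bp wide and the Vehicle region 237 bp. Without correction for width the log2 fold change was 1.41 (edgeR adjusted p = 0.000486), in a fit that called 68.6% of all shared regions higher. The strongest Dex region without a Vehicle region was that at -106.1 kb, with 7.20 and 9.75 RPKM.

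The Klf9 region nearest to the gene, at -5.4 kb (chr19:23134738-23136872), spanned 2134 bp over the promoter of the non-coding gene 2410080I02Rik. It had 8.67 and 13.3 RPKM in Dex and covered 2 Vehicle regions, with 7.01 and 13.7 RPKM at -6.1 kb and 6.77 and 18.7 at -5.3 kb. The Vehicle values spread widely between replicates and enclosed the Dex values, and since 1 wide region was set against 2 narrow ones the difference was not tested. Beside the GRE palindrome, 706 bp from its centre, it held 3 matches to the E-box CACGTG, the site of the clock activators CLOCK and BMAL1. It also held matches to the KLF motif CCACNCCC and the C/EBP motif TTGCNNAA. A region this wide has more room for matches than the median Dex region of 515 bp. An E-box lay in 11.8% of all whole Dex regions searched.

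Klf15 was the Kruppel-like gene with the highest signal over its own promoters. Its transcripts start at several sites (chr6:90462576-90475238, plus strand), and 3 regions lay over them, at -0.6, -0.2 and +1.0 kb from the nearest one. The region at -0.6 kb (chr6:90464513-90464813), with a GRE palindrome 1 bp from its centre, had 8.42 and 12.8 RPKM in Dex, and that at -0.2 kb (chr6:90466017-90466344) had 10.1 and 9.02. Neither had a Vehicle region. The region at +1.0 kb (chr6:90463366-90463949) had 6.10 and 6.41 RPKM in Vehicle and 7.97 and 11.8 in Dex. Those groups did not overlap, and the log2 fold change of 0.66 ± 0.41 did not pass the test (edgeR adjusted p = 0.280). An intronic region at +4.2 kb, also with a palindrome, had 7.94 and 10.2 RPKM in Dex.

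The other shared Klf15 regions, at +25.4 and +41.2 kb, lay inside the neighbouring gene Aldh1l1, which encodes a folate enzyme and hosts 5 of the 11 Klf15 regions. When the start sites of all Aldh1l1 transcripts were counted these 5 went to Aldh1l1, so they are not securely those of Klf15. At +41.2 kb the Vehicle libraries had 3.72 and 6.29 RPKM and the Dex libraries 8.61 and 10.6 (log2 fold change 0.97 ± 0.41, edgeR adjusted p = 0.0947). At +25.4 kb the Vehicle libraries had 2.84 and 4.28 RPKM and the Dex libraries 6.26 and 8.21 (1.04 ± 0.45, edgeR adjusted p = 0.0996). Dex was higher than Vehicle without overlap at both, by 1.97-fold and 2.06-fold, and neither passed the threshold.

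Zbtb16 combined many regions with high signal. Of its 18 Dex regions 16 were in introns of the gene (chr9:48654297-48836222, minus strand), and the 8 that lay between +86.6 and +112.0 kb formed a cluster 25.4 kb long. The bounds of the cluster were drawn with the signal in view, since the weak region at +80.3 kb (2.94 and 4.28 RPKM) is closer to +86.6 kb than +99.4 is to +106.3 kb within it, so its contrast with the other regions is a description. Every member of the cluster was at or above the 98.4th percentile of all Dex regions, with 8.82 to 12.6 RPKM in Dex replicate 1 and 11.0 to 19.6 in replicate 2. The other 10 regions had 2.93 to 6.37 and 3.24 to 12.6. All 5 Vehicle regions of Zbtb16 were in the cluster and 0 elsewhere at the gene, and 4 of the 8 had a GRE palindrome, beside 2 of the other 10. The region over the TSS had 3.81 and 3.63 RPKM in Dex and no Vehicle region.

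Within the cluster the shared regions were high in both groups. At +106.3 kb (chr9:48729422-48729888), the highest by mean Dex signal, the values were 9.22 and 11.1 RPKM in Vehicle and 12.6 and 18.6 in Dex (log2 fold change 0.62 ± 0.44, edgeR adjusted p = 0.350). At +90.5 kb (chr9:48744901-48745947) they were 7.42 and 9.62 in Vehicle and 11.2 and 15.7 in Dex (0.67 ± 0.43, edgeR adjusted p = 0.301). In both of these the groups did not overlap. At +98.3 kb (chr9:48737474-48737890), the shared region with the highest Vehicle signal at the gene, the values were 9.53 and 14.2 in Vehicle and 12.1 and 18.5 in Dex, and they overlapped, as they did at +86.6 and +112.0 kb. Values at +112.0 kb were 9.36 and 13.4 in Vehicle and 11.2 and 19.6 in Dex. Of the Dex regions without a Vehicle region the strongest was that at +99.4 kb (chr9:48736384-48736686), with 9.65 and 14.8 RPKM, followed by that at +95.6 kb (chr9:48740174-48740501), whose pair of palindromes is printed above, with 8.82 and 15.2. The other regions with a palindrome had 4.44 and 5.43 at +11.0 kb and 4.10 and 6.29 at +60.1 kb. The site closest to the full palindrome, at +60.1 kb, was thus in a region of lower signal than the cluster.

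Klf11 and Klf10, known as TGF-beta-induced genes, and the lymphocyte activator gene Klf13 had fewer Dex regions than the rest of the 8 genes. Still, 88.1% of protein-coding genes had fewer than Klf10 or Klf11, and 82.7% fewer than Klf13. The strongest at Klf11 was a shared region at -23.9 kb (chr12:24627042-24627668), with 3.04 and 3.62 RPKM in Vehicle and 5.20 and 5.47 in Dex. Its groups did not overlap, and the change was not called (log2 fold change 0.70 ± 0.35, edgeR adjusted p = 0.159). The promoter region of Klf11 at +0.3 kb had 4.44 and 4.92 RPKM in Dex and no Vehicle region. All 3 regions of Klf13 lay over its promoters, at -1.1, -0.8 and -0.2 kb from the nearest of its start sites, with 4.38 to 5.72 RPKM in Dex replicate 1 and 5.22 to 5.92 in replicate 2. The strongest Klf13 region was that at -0.2 kb (chr7:63936305-63936746). The 4 regions of Klf10 were all distant from its TSS, the nearest at -28.1 kb, and had 1.88 to 3.03 and 2.56 to 3.93 RPKM, the highest being at -48.3 kb (3.03 and 3.93). The GRE core was found in 0 of the regions of these 3 genes.

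Klf4 and Klf6, the pluripotency and injury factors, had long arrays of regions, most of them below the median signal of all Dex regions. The 15 Dex regions of Klf4 spread from -581.3 to +69.7 kb with 1.62 to 4.99 RPKM in Dex replicate 1 and 2.00 to 5.22 in replicate 2, and the nearest to the gene, at +16.7 kb, had 2.24 and 2.00. Of the 16 shared regions of the 8 genes tested, the 1 that passed (beside 10.8% of all shared regions) was here, at -581.3 kb (chr4:56113225-56114243). It had 2.01 and 1.35 RPKM in Vehicle and 3.08 and 4.41 in Dex, without overlap, and rose 2.18-fold (log2 fold change 1.12 ± 0.36, edgeR adjusted p = 0.0298). Its Vehicle signal was lower than that of nearly all Vehicle regions (percentile 1.17), and the call was lost with TMM (0.58) and DESeq2 (0.62). It was also lost whichever library was left out, with log2 fold changes of 0.84 to 1.47, in fits that made 1 to 181 higher calls over all regions in place of 612. The strongest Klf4 region, at -426.8 kb, had 4.99 and 5.22 RPKM in Dex and no Vehicle region. The strongest shared one, at -72.6 kb, had 2.87 and 3.70 in Vehicle and 4.71 and 5.10 in Dex (0.61 ± 0.33, edgeR adjusted p = 0.203).

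At -217.8 kb of Klf4 the order was turned, with 2.15 and 2.16 RPKM in Vehicle and 1.92 and 2.098 in Dex. This was the only one of the 16 tested regions in which both Dex values were below both Vehicle values, and the difference was small (log2 fold change -0.10 ± 0.33, edgeR adjusted p = 0.872). The 10 Dex regions of Klf6 had 0.989 to 4.07 and 1.16 to 4.82 RPKM. The strongest was that at +0.3 kb over its promoter (3.68 and 4.82), and another promoter region at -0.4 kb had 3.71 and 2.51, both without a Vehicle region. The 1 shared region, at +198.5 kb, had 2.52 and 2.83 RPKM in Vehicle and 3.62 and 4.02 in Dex (0.52 ± 0.36, edgeR adjusted p = 0.337). By mean Dex signal the promoter region at +0.3 kb stood at the percentile 72.3, and the lowest Klf6 region, at -57.6 kb, at 0.405.

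The comparison of Dex with Vehicle asks whether added ligand changed GR signal at regions found under both treatments. It was made at 5665 regions that overlapped one to one between the sets, 16 of them at the 8 genes. Higher signal in Dex was called at 1 of these 16 (the Klf4 region at -581.3 kb), beside 10.8% of all regions tested, and lower signal at 0, beside 0.0177%. Without adjustment, 5 had p under 0.05 in the higher direction, beside 28.6% of all, and 0 in the lower direction, beside 23 of the 5665. DESeq2 called 0 of the 16 in either direction, beside 265 higher and 28 lower of the 5665. At an unadjusted p under 0.05, DESeq2 had 2 of the 16 higher, beside 658 of the 5665. It gave no adjusted p at Klf11 -23.9 kb, Klf9 -72.4 kb, Klf4 -72.6 kb and Klf4 -217.8 kb. A region without an adjusted p was counted as not called, here and below. Both Dex values were above both Vehicle values at 11 of the 16, beside 51.5% of all regions, and below at 1, beside 4.78%.

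The log2 fold change was above 0 at 15 of the 16, beside 80.1% of all, and at 12 with TMM or DESeq2 scaling and 10 with scaling to the total of the shared regions. The median was 0.64 over the 16, beside 0.43 over all regions tested and 0.65 over all those away from promoters. Of the 16, 14 were away from promoters. The median of the 16 fell to 0.16 with TMM, 0.17 with DESeq2 and 0.10 with scaling to the total of the shared regions, where that of all regions was -0.04, -0.02 and -0.09, and it was 0.38 without Dex replicate 2. The standard errors lay between 0.33 and 0.45, and the changes of 1.12 at Klf4 -581.3 kb and 1.13 at Klf9 -102.7 kb fell on either side of the threshold. More reads did not bring a smaller standard error. It was 0.44 at Klf9 -84.2 kb (222 to 703 reads per library) and 0.36 at Klf4 -581.3 kb (35 to 292). An exact permutation test of 2 against 2 libraries cannot give a two-sided p below 0.33. Dex regions were wider than Vehicle regions by a median of 1.45 times, and without the correction for width 12 of the 16 were called higher, beside 68.6% of all.

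**Figure D3:**
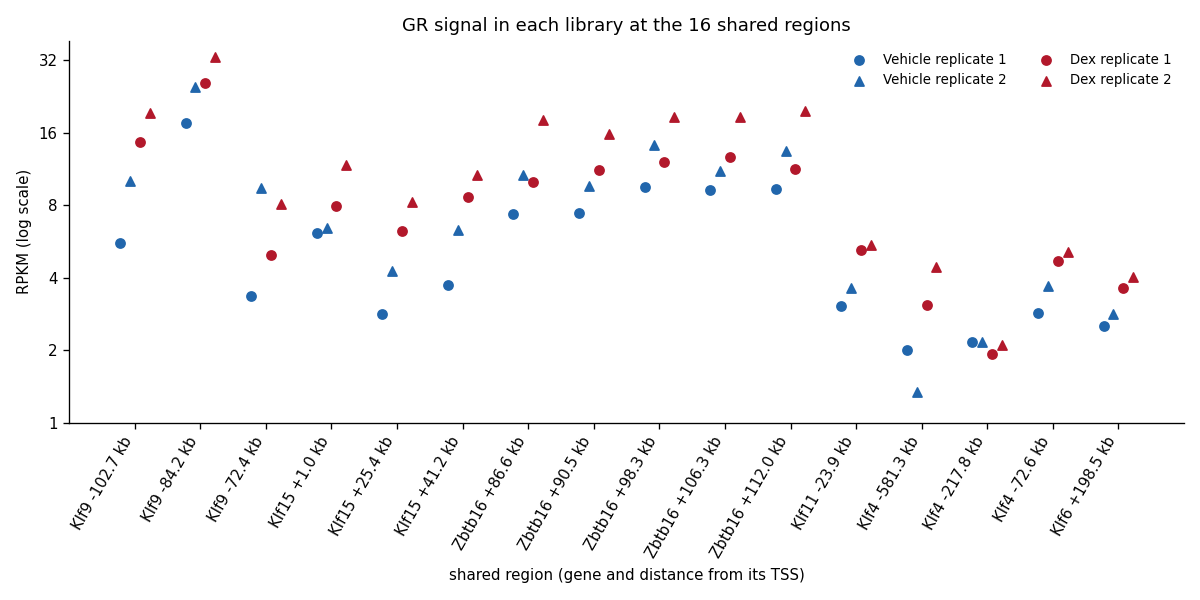
RPKM (log scale) in each of the 4 libraries at the 16 shared regions, blue for Vehicle and red for Dex, circles for replicate 1 and triangles for replicate 2. The groups overlap at 4 regions (Klf9 -72.4 kb and Zbtb16 +86.6, +98.3 and +112.0 kb), and replicate 2 is above replicate 1 within most pairs.

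**Figure D4:**
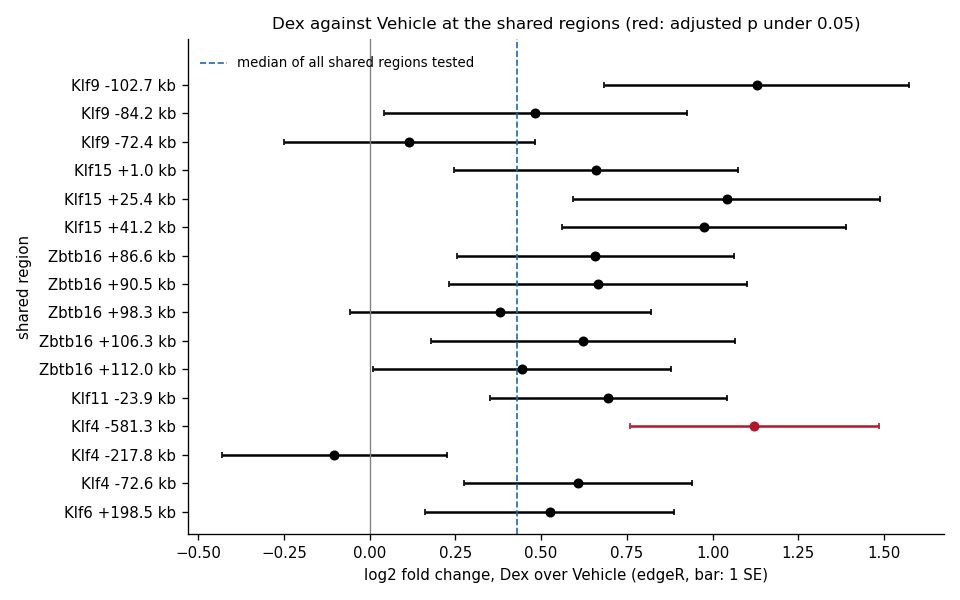
Log2 fold change of Dex over Vehicle at the 16 shared regions, with 1 SE on either side, from edgeR. The dashed line is the median of all 5665 shared regions (0.43), and the Klf4 region at -581.3 kb (1.12, red) is the 1 that passed the threshold. Values run from -0.10 to 1.13.

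GRE matches were counted in the regions of the 8 genes and in all 31298 Dex regions searched. In the central 200 bp the palindrome was present in 8 of 77 (10.4%), beside 2.70% of all, and the GRE core in 20 (26.0%), beside 9.99%. In whole regions the palindrome was in 11 (14.3%), beside 4.60%, although these regions were slightly narrower than the rest (median 480 bp beside 515 bp). In whole regions the core was found in 28 (36.4%, beside 20.8%), at Zbtb16 in 10 regions, at Klf15 and Klf6 in 5 each and at Klf9 and Klf4 in 4 each. These shares are descriptions, since regions of 1 gene share a locus and no test was made.

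Other motifs were near their share over all Dex regions. In the central 200 bp, the single site AGAACA, which can overlap the palindrome, was in 24.7% beside 19.2%, the C/EBP motif TTGCNNAA in 11.7% beside 13.1%, the HNF4A motif CAAAGTCCA in 1.30% beside 1.40%, the FOXA motif TGTTTAC in 2.60% beside 4.32%, the E-box CACGTG in 6.49% beside 4.34% and the KLF motif CCACNCCC in 7.79% beside 7.36%. The 11 regions with a palindrome were at Zbtb16 (6), Klf9 (3) and Klf15 (2), the genes of the highest signal, and were narrower than the other 66 (median 351 bp beside 499 bp). Their median was 8.82 and 14.8 RPKM in Dex replicates 1 and 2 at the 8 genes, beside 3.65 and 4.15 without one, and 5 of the 11 overlapped a Vehicle region. Over all Dex regions the corresponding medians were 3.49 and 4.76 with a palindrome and 2.89 and 3.40 without, at widths of 537 bp and 514 bp. The part of gene and width in these differences was not tested.

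**Figure D5:**
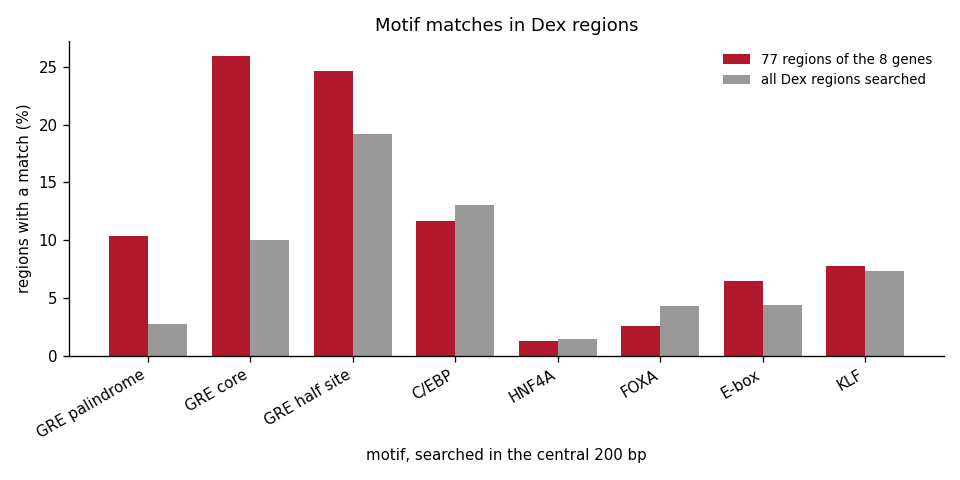
Share of Dex regions (%) with at least 1 match to each motif in the central 200 bp, in red for the 77 regions of the 8 genes and in grey for all 31298 Dex regions searched. The red bar is above the grey one by the widest margins for the GRE core (26.0 against 9.99) and the palindrome (10.4 against 2.70).

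Other genes of the same families served as a frame. Of 10 further Kruppel-like factor genes, 8 had Dex regions (60 regions) and 5 Vehicle regions (14), and 3 of 14 shared regions were higher in Dex (edgeR, beside 10.8% of all shared regions) with a median log2 fold change of 0.86, and DESeq2 called 2. Those called by edgeR were at Klf17 -22.8 kb (4.03 and 7.86 RPKM in Vehicle, 10.8 and 18.7 in Dex, 1.34 ± 0.45, edgeR adjusted p = 0.0360), Klf14 -189.5 kb (3.90 and 2.42, then 6.18 and 10.2, 1.32 ± 0.40, edgeR adjusted p = 0.0211) and Klf12 -39.8 kb (2.44 and 1.87, then 4.01 and 7.18, 1.34 ± 0.34, edgeR adjusted p = 0.00657). Of 9 SP genes, relatives that bind the same GC-rich sites, 7 had Dex regions and 1 had Vehicle regions, and 1 of 5 shared regions was higher by edgeR, at Sp3 +72.0 kb (2.25 and 3.83 in Vehicle, 5.54 and 7.39 in Dex, 1.15 ± 0.33, edgeR adjusted p = 0.0163), whereas DESeq2 called 0 of the 5. Of 17 BTB zinc finger genes 11 had Dex regions and 3 Vehicle regions, led by Zbtb20 with 38 and Bcl6 with 18 Dex regions. Many regions with high signal were thus not particular to Zbtb16. Bcl6 had 9 Vehicle regions and at most 16.1 and 22.4 RPKM in Dex replicates 1 and 2. Zbtb16 had 18 Dex and 5 Vehicle regions and at most 12.6 and 19.6 RPKM. At the BTB zinc finger genes, edgeR called 0 of 11 shared regions (beside 10.8% of all), and DESeq2 called 0. Without adjustment edgeR had 1 of these 11 higher at p under 0.05, beside 28.6% of all. The DESeq2 counts of the 3 lists stand beside 265 higher calls over all 5665 shared regions. Lower signal was called at 0 of the regions of the 3 lists by either tool, beside 1 of all 5665 by edgeR and 28 by DESeq2. Without adjustment edgeR had 0 of them lower at p under 0.05, beside 23 of all.

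The genes whose strongest shared region was most like that of Klf9, by Euclidean distance over log2 RPKM in the 4 libraries among 3905 genes, were Hectd4 (0.27), Zmiz1 (0.45), St3gal5 (0.48), Tsku (0.49) and E030018B13Rik (0.51). At Hectd4, the closest, the values were 16.9 and 21.3 RPKM in Vehicle and 24.3 and 36.2 in Dex, beside 17.5 and 24.6, and 25.8 and 32.8, at Klf9 -84.2 kb. The measure compares levels alone.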

How the data were processed

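GR ChIP-seq from mouse liver was analysed in 2 ZT18 Vehicle and 2 ZT18 Dex libraries, grouped by their titles. The labels do not say that the libraries came from separate animals, and p-values then reflect only how these samples spread, which may be technical. Each library pooled 3 immunoprecipitations of 25 µg chromatin with 30 ng of spike-in chromatin, and no spike-in scaling factor was used here. Bowtie 1.1.0, SAMtools 1.2 and MACS2 2.1.1, with the build mm10, are named in the submitters' processing notes. The authors called regions once per treatment, over the ZT6 and ZT18 libraries together, and removed blacklisted regions. The authors deposited whole read counts per region. The deposited RPKM equals those reads scaled by region width and by a single library total, which was recovered from the 2 columns. The deposited score, which the authors made from the count with a factor for each library, was not used, nor were 2 other deposited control columns that hold 1 throughout. The 20 value columns of 4 ZT6 tables have no sample in the labels and were not used.

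Regions were matched with bedtools 2.31.1 (at least 1 bp) and annotated with GENCODE M21 on mm10. Coordinates of regions are those of the files. Counts at one-to-one matches were tested with edgeR 4.0.16 in R 4.3.3 (quasi-likelihood test with an offset for library total and region width, and a Benjamini-Hochberg threshold of 0.05). A minimum of 10 reads in 2 or more libraries removed 0 regions. The script was first tested on simulated counts. The prior degrees of freedom were infinite and the common dispersion was 0.0529, so a region's own replicate spread does not enter its SE or p-value. Motifs were searched without mismatch in Python 3.11.15, leaving out 45 Dex regions on sequences not searched.

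The text names all 8 genes and, for each, the strongest, the strongest shared, the strongest without Vehicle and the nearest region, every region over its promoter or with a palindrome, and every call. From the other lists it names genes with a called shared region, up to 4. The Zbtb20 and Bcl6 counts and the Bcl6 signal were picked after their values were seen. The members, lists and rules were chosen with earlier results of these data known. Alternatives were TMM and shared-region scaling, no width correction, a 50% overlap, DESeq2 1.42.0, a block on replicate number, other count minimums, leaving out each library, other windows and other start site definitions, of which 2 were added after seeing the data. One gene of the hepatocyte marker list is not reported here.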

Additional observations from a re-analysis of the deposited data

How the results depend on the processing

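Scaling moved the median of all shared regions from 0.43 to -0.04 (TMM), -0.09 (total of the shared regions) and -0.02 (DESeq2), and to 1.09 without width correction. Over all shared regions the higher calls went from 612 to 337 with TMM, 290 with the shared total, 3886 without width correction, 81 with at least 50 reads in every library, 2121 with the replicate number as a block and 265 with DESeq2, and to between 1 and 181 when a library was left out (1 without Dex replicate 2, 181 without Dex replicate 1, and 55 and 66 when Vehicle replicate 1 or 2 was omitted). Lower calls went from 1 to 92, 125, 12, 27 with the block and 28 with DESeq2 for the same settings, to 0 with a 50% overlap and to between 0 and 18 when a library was left out. Of the 16 regions of the 8 genes, 1 was called higher, and 0 with TMM, the shared total, 50 reads, DESeq2 or any library left out (0 to 0), 12 without width correction and 10 with the replicate block. The numbers are not shown to pair the libraries (correlation of replicate deviations 0.078), so the block is given here only. With at least 50 reads in every library 12 of the 16 were tested, and DESeq2 gave some of the 16 no adjusted p. The median of the 16 was 0.64, and 0.16 with TMM, 0.17 with DESeq2, 0.10 with the shared total, 1.22 without width correction and 0.38 to 0.83 with a library left out (0.38 without Dex replicate 2).

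With a library left out, the lone sample of its group was assumed to vary like the other group. Alternatives that gave a region no adjusted p, as DESeq2 did for some, were left out. A change of sign there is not counted. The DESeq2 list below is short, since 12 of the 16 were above 0 with DESeq2, beside 15 in the main fit. Among the rest, single regions changed sign in 14 of 183 alternatives. These were, with TMM, Klf9 -72.4 kb (-0.28), Zbtb16 +112.0 kb (-0.020) and Zbtb16 +98.3 kb (-0.071). With the shared total they were Klf6 +198.5 kb (-0.0063), Klf9 -84.2 kb (-0.016), Klf9 -72.4 kb (-0.34), Zbtb16 +112.0 kb (-0.075) and Zbtb16 +98.3 kb (-0.13), and with DESeq2 Zbtb16 +112.0 kb (-0.0093) and Zbtb16 +98.3 kb (-0.062). Without width correction it was Klf4 -217.8 kb (0.50). With a library left out they were Klf9 -72.4 kb (-0.53 without Vehicle replicate 1 and -0.29 without Dex replicate 2, in a range of -0.53 to 0.95) and Zbtb16 +112.0 kb (-0.014 without Dex replicate 2, in a range of -0.014 to 0.79). The Klf4 -581.3 kb change lost its call with TMM (0.58), the shared total (0.52), DESeq2 (0.62) and each library left out (0.84 to 1.47). With start sites of every transcript of any gene type 29 Dex and 6 Vehicle regions stayed with the 8 genes. In a 100 bp window the palindrome was in 5 regions and the core in 12, fewer by construction. The cause of the other shifts was not tested. Depth is 1 of the limits on single regions, with 25 to 1187 reads in Dex replicate 1.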
